A study of Homo sapiens with 4 samples.

Results

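The interleukin-1 (IL-1) family was examined through 10 genes, named by symbol: the ligands IL1A, IL1B, IL18, IL33 and IL36G, the antagonist IL1RN, and the receptor genes IL1R1, IL1R2, IL1RAP and IL1RL1. All probes other than controls whose accession maps to one of these symbols were taken. These are 10 of 19062 genes named on the array, of which 16582 could be tested. SB cells are SAS cells, an established tongue carcinoma line, made to carry pLKO.1 with an shRNA against AEG-1 (LYRIC, gene symbol MTDH). SCt cells are SAS cells with the control vector, which the labels give as pLKO.1 and the methods as a scrambled shRNA. Both lines were infected with lentivirus, selected as stable cells for 14 days in 2 μg/ml puromycin, and grown in medium with 10% serum. RNA of both was hybridized together on each of 4 Agilent arrays, SB cells in red and SCt cells in green, from 15 μg of total RNA per labelling. With 0 dye-swapped arrays, a probe's preference for a dye and the effect of the shRNA cannot be told apart. The labels call the arrays biological replicates. Nothing states separate cultures, so the p-values rest on the spread between these arrays, which may be technical. For in vitro work in general the methods give 3 biological replicates, not 4.

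IL-1 family ligands are cytokines of inflammation and of barrier epithelia. IL-1α and IL-1β bind the receptor chain encoded by IL1R1, which pairs with the accessory protein IL1RAP and signals through MyD88, IRAK kinases and TRAF6 to NF-kB and MAP kinases. The antagonist encoded by IL1RN occupies the same receptor without signalling, IL1R2 is a decoy, and IL1RL1 (ST2) is the receptor chain for IL-33.

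The measure used throughout is the log2 ratio with SB cells over SCt cells, and levels are normalised intensities that compare the 2 lines for the same probe or the same set of probes only. AEG-1 was examined first, as the target of the shRNA. Its level in SB cells was 1110, 1605, 1266 and 1371 on arrays 1 to 4, against 10077, 12888, 11023 and 14621 in SCt cells. The channels did not overlap, and the log2 ratio was −3.18 ± 0.17 (SD, n = 4 arrays; limma, adjusted p = 5.19e-10).

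Of the 10 members, 8 had a probe whose signal stood well above background on each of the 4 arrays and were tested. IL1RL1 and IL1B were lower in SB cells, and the other 6 did not pass the test. These 2 of 8 compare with 695 of all 16582 genes past the threshold, 4.19%, of which 493 were lower (2.97%) and 202 higher (1.22%) in SB cells. The median log2 ratio of the 8 members was −0.06, against 0.0021 over all genes tested, and 6 of the 8 had a negative log2 ratio. A gene is called here at a limma p under 0.05 after Benjamini-Hochberg adjustment over all 28505 probes tested. By role, 1 of 4 tested ligands, 0 of 1 antagonist and 1 of 3 tested receptor genes were called; by the methods' t-test 2 of the 8 had a p under 0.05, the threshold of the methods, as had 3936 of all 28505 probes, and none passed after the Benjamini-Hochberg adjustment added here.

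**Figure D1:**
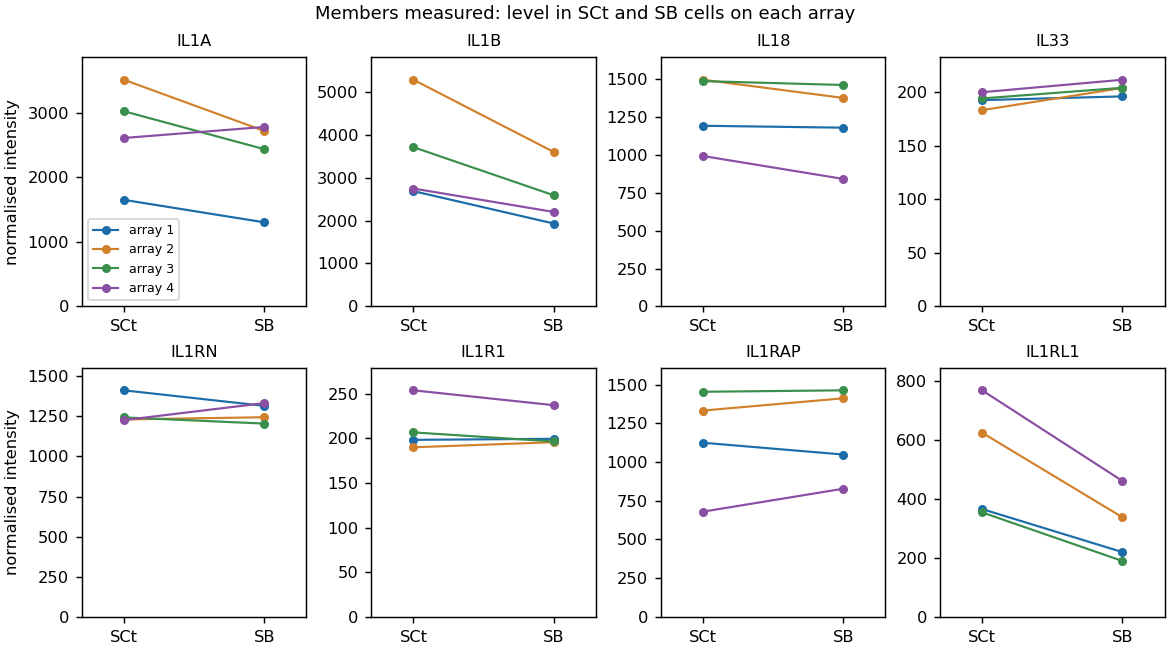
Normalised intensity (linear axis from 0) of the 8 members tested in SCt and SB cells, 1 line per array. SB cells lie lower in all 4 lines for IL1B, IL1RL1 and IL18, of which IL18 was not called, and in 3 of 4 for IL1A.

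IL-1β, the secreted ligand that is cleaved to its active form, is encoded by IL1B and was read by 1 probe (A_23_P79518) spotted 10 times on each array. Its level was 1930, 3597, 2588 and 2200 in SB cells on arrays 1 to 4, and 2686, 5280, 3709 and 2746 in SCt cells. The ranges of the lines overlapped because arrays differed in level, but SB cells were lower within each of the 4 arrays. The log2 ratios were −0.48, −0.55, −0.52 and −0.32. Their mean was −0.47 ± 0.10 (SD, n = 4 arrays), a level 72.3% of that in SCt cells, with a 95% interval from −0.60 to −0.34 (limma, adjusted p = 0.00148). Within an array the spots were close to each other: their SD lay between 0.033 and 0.055, and 39 of 39 spots used were below 0. In the order of all genes tested from the lowest log2 ratio, IL1B was number 85 of 16582.

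IL-1α, a ligand that is active also in its uncleaved form and is held in epithelial cells, is encoded by IL1A (A_23_P72096, 10 spots). Its level was 1303, 2720, 2438 and 2782 in SB cells on arrays 1 to 4, and 1652, 3515, 3026 and 2612 in SCt cells. Arrays 1 to 3 were lower in SB cells, with log2 ratios of −0.34, −0.37 and −0.31, and array 4 was higher, with 0.09. The mean of −0.23 ± 0.22 (SD, n = 4 arrays, and limma, adjusted p = 0.1246) did not pass the test, and its 95% interval ran from −0.40 to −0.06. That interval uses a variance that limma draws toward that of all probes, whereas the SD is that of IL1A alone. By the methods' t-test, which uses the spread of IL1A alone, the adjusted p was 0.471. On array 4 all 9 spots used were above 0, with a spot SD of 0.049, whereas all 10 spots on each of the other arrays were below 0. Without array 4, the log2 ratio was −0.34 and IL1A passed the test (limma, adjusted p = 0.00123; over all 17 alternatives, 0.00123 to 0.471). Under median centring the log2 ratio of IL1A was −0.14 and did not pass (limma, adjusted p = 0.202).

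**Figure D2:**
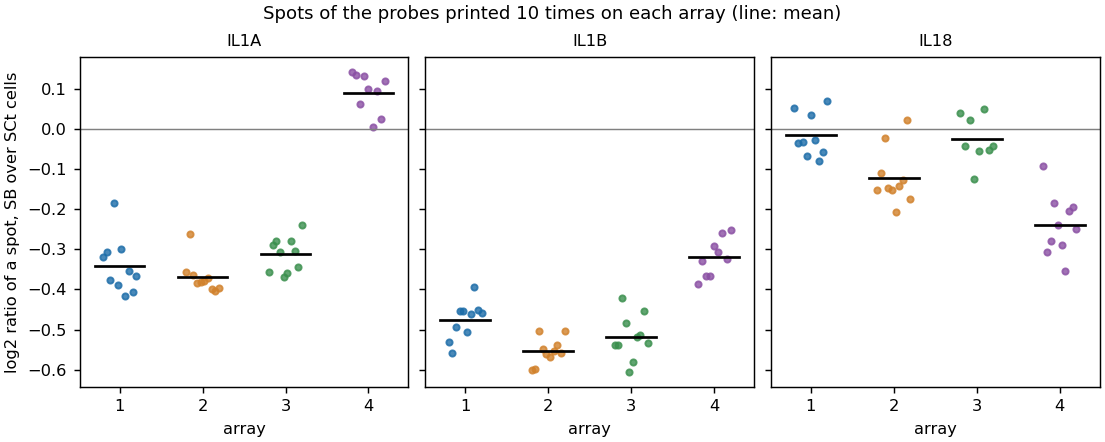
Log2 ratio of each spot, SB over SCt cells, for the 3 members whose probe was spotted 10 times, by array; the black line is the mean of an array. The spots of IL1A on array 4 lie above 0 as a group, those of IL1B lie below 0 on every array, and IL18 lies lowest on array 4.

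IL-18, a ligand that is stored as a precursor in epithelial cells, was read by 1 probe (A_23_P104798). Its log2 ratio was −0.015, −0.12, −0.025 and −0.24 on arrays 1 to 4. The mean of −0.10 ± 0.10 (SD, n = 4 arrays; limma, adjusted p = 0.403) did not pass the test, with a 95% interval from −0.23 to 0.030. Without array 4 the log2 ratio of IL18 was −0.054, and under median centring it was −0.016, neither of them called. On array 4 IL18 had its lowest value, whereas IL1A and IL1B had their highest there.

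IL33, a nuclear cytokine released from damaged epithelial cells, had levels of 196, 204, 204 and 211 in SB cells on arrays 1 to 4, and 192, 183, 194 and 199.8 in SCt cells. Its log2 ratio was positive on all 4 arrays, at 0.026, 0.15, 0.07 and 0.08, but the mean of 0.08 ± 0.053 (SD, n = 4 arrays; limma, adjusted p = 0.451) did not pass the test. Under median centring in place of loess it was −0.017, so that its sign depended on the scaling. IL36G, an epithelial ligand, was well above background on 1 of 4 arrays in each line, did not pass the filter and is given no fold.

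The antagonist gene IL1RN had 2 probes. At the brighter (A_33_P3246829) the level was 1315, 1244, 1204 and 1332 in SB cells on arrays 1 to 4, and 1411, 1230, 1243 and 1226 in SCt cells. The log2 ratio had a different sign on different arrays, and the mean was −0.0032 ± 0.09 (SD, n = 4 arrays; adjusted p = 0.985 by limma). Its 95% interval ran from −0.13 to 0.12. The other probe (A_33_P3246833) gave −0.12 ± 0.17 (SD, n = 4 arrays; limma, adjusted p = 0.391) and was not called either.

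The receptor gene IL1RL1 had the lowest log2 ratio of the members. Its single probe (A_23_P51126), listed under an accession of the IL1RL1 transcripts, had levels of 220, 338, 189.9 and 461 in SB cells on arrays 1 to 4, and 366, 625, 355 and 769 in SCt cells. SB cells were lower on each of the 4 arrays, although the ranges of the lines overlapped between arrays. The log2 ratios were −0.73, −0.89, −0.90 and −0.74. Their mean was −0.82 ± 0.09 (SD, n = 4 arrays), a level 56.8% of that in SCt cells and 1.76-fold lower, with a 95% interval from −0.94 to −0.69 (limma, adjusted p = 1.95e-05). In the order of all genes tested from the lowest log2 ratio, IL1RL1 was number 14 of 16582. Which of the membrane-bound and soluble forms made from IL1RL1 the probe reads was not tested.

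IL1R1, the signalling receptor of IL-1α and IL-1β, had log2 ratios of 0.0084, 0.043, −0.07 and −0.10 on arrays 1 to 4 (A_33_P3396389). The mean was −0.030 ± 0.07 (SD, n = 4 arrays; limma, adjusted p = 0.828), with a 95% interval from −0.15 to 0.09. Median centring gave −0.12, and with an array left out the value ran from −0.054 to −0.0072, none of them called. A second probe (A_24_P200023) was well above background on 1 of 4 arrays in each line and did not pass the filter. For the accessory chain IL1RAP, the probe A_23_P170857 gave 0.07 ± 0.16 and the probe A_23_P336554 gave −0.07 ± 0.10 (SD, n = 4 arrays each). The probes thus differed in sign, and neither was called (limma, adjusted p = 0.636 and 0.561). IL1R2, the decoy receptor, was well above background on 1 of 4 arrays in each line, did not pass the filter and is given no fold.

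**Figure D3:**
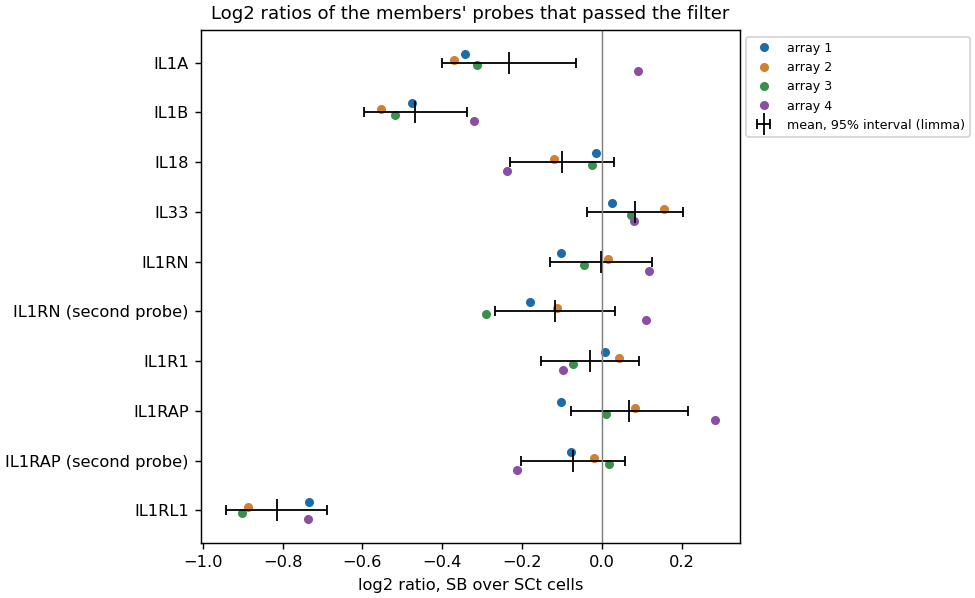
Log2 ratio, SB over SCt, for every probe of the members that passed the filter; dots are arrays, the bar is the limma mean with its 95% interval. The intervals, which use a variance that limma draws toward that of all probes, lie below 0 for IL1RL1, IL1B and IL1A. IL1A is not called after adjustment (limma, adjusted p = 0.1246).

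The ligands were set against the antagonist and against each other on the same arrays, with IL1RN read at its brighter probe. The other IL1RN probe had −0.18, −0.11, −0.29 and 0.11 on arrays 1 to 4, with a lower mean of −0.12. Mean differences of the ligands from that probe alone were not computed and would be smaller. IL1B minus IL1RN was −0.37, −0.57, −0.47 and −0.44 on arrays 1 to 4, with a mean of −0.46 ± 0.08 (SD, n = 4 arrays). IL1A minus IL1RN was −0.24, −0.39, −0.27 and −0.028, with a mean of −0.23 ± 0.15. IL1A minus IL1B was 0.13, 0.18, 0.21 and 0.41, with a mean of 0.23 ± 0.12. Each of these 3 differences had the same sign on all 4 arrays, and in the exact two-sided sign-flip test 2 of 16 sign patterns were as far from 0, p = 0.13, also after adjustment over the 3. This is the smallest p that this test can give with 4 arrays, so it cannot pass 0.05. IL1R1 minus IL1R2 could not be computed, as IL1R2 did not pass the filter.

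The genes whose 4 log2 ratios lay nearest to those of IL1B were PWWP3B, TNFAIP2 and PLS1, at Euclidean distances of 0.0738, 0.126 and 0.130. Their mean log2 ratios were −0.49, −0.45 and −0.44.

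IL1RL1 and IL1B lie among genes of their own family on chromosome 2. In the row of receptor genes, in the order IL1R2, IL1R1, IL1RL2, IL1RL1, IL18R1 and IL18RAP, 5 of 6 were tested and 1 was called, IL1RL1, against 4.19% of all genes. Its neighbours IL1RL2 and IL18R1 had log2 ratios of 0.027 (limma, adjusted p = 0.845) and −0.08 (limma, adjusted p = 0.465). IL18R1 had 3 probes that passed the filter, at −0.08, −0.11 and −0.14, none of them called. Beside the row, SLC9A4, outside the family, was called higher, at 0.27 (limma, adjusted p = 0.0300). In the row of ligand genes, from IL1A to IL1RN, 8 of 9 were tested and 1 was called, IL1B, against the same 4.19%. Next to it lay IL1A, at −0.23, and IL37, at −0.20 (limma, adjusted p = 0.0805), neither called, while IL36RN, the antagonist of the IL-36 ligands, had 0.13 (limma, adjusted p = 0.235). Whether the log2 ratios of neighbours differ from those of IL1B and IL1RL1 was not tested.

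**Figure D4:**
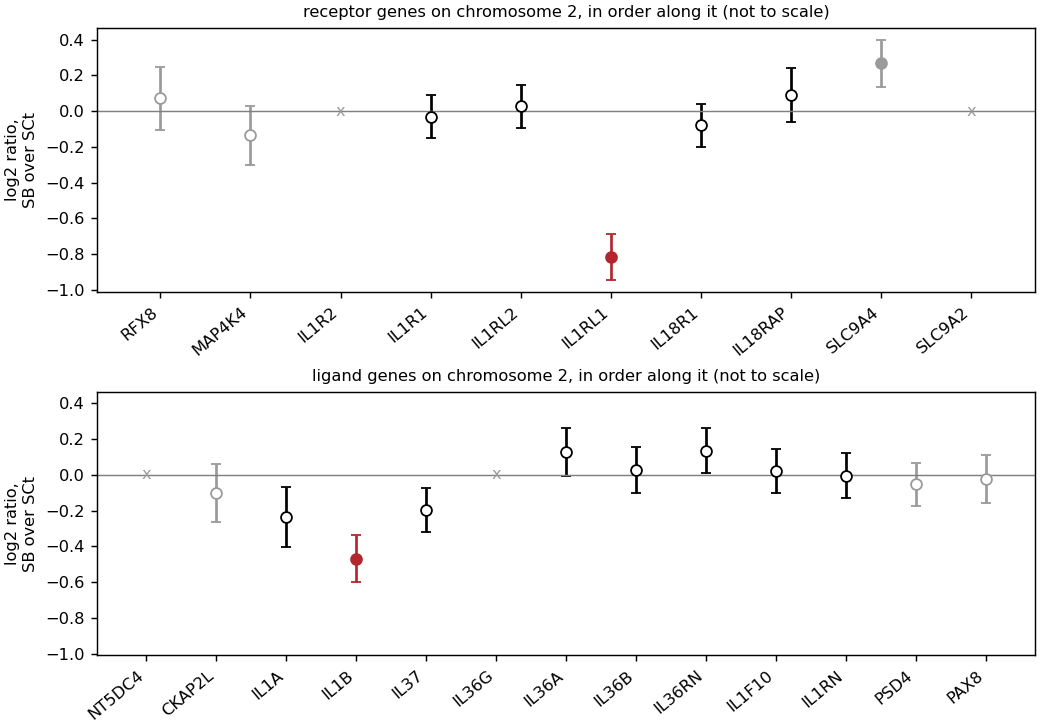
Log2 ratio, SB over SCt, with its 95% interval from limma, for the receptor and ligand genes in their order along chromosome 2 (spacing not to scale). Filled points have an adjusted p under 0.05, grey points are genes outside the family, and x marks a gene not tested; of the family genes drawn, IL1RL1 and IL1B are filled.

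The start regions of the called members are shown with 3 motifs whose factors are known in IL-1 biology. The motifs were GGANNNNCC for NF-kB, TGANTCA for AP-1 and TTNNGNAA for C/EBP, searched on both strands from 250 bases before to 50 bases after a start. The RefSeq table of start regions (GRCh38.p14) held 9 of the 10 members and gave 1 start for IL1B (chr2:112836730-112837029, minus strand) and 2 for IL1RL1 (chr2:102311313-102311612 and chr2:102337007-102337306, plus strand). Capitals mark the letters of any match.
IL1B: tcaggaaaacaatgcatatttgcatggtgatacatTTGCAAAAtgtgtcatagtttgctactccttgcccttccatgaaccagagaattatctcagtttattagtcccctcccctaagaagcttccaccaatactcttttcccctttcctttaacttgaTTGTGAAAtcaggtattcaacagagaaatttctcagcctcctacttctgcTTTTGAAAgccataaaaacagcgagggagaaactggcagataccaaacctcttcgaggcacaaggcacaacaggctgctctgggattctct
IL1RL1 start 1: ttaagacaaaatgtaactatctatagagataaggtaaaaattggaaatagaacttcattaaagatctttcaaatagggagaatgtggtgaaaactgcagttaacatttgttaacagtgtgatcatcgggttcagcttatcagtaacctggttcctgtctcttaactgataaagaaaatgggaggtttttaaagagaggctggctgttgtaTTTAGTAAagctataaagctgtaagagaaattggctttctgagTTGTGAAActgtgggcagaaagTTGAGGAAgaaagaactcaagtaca
IL1RL1 start 2: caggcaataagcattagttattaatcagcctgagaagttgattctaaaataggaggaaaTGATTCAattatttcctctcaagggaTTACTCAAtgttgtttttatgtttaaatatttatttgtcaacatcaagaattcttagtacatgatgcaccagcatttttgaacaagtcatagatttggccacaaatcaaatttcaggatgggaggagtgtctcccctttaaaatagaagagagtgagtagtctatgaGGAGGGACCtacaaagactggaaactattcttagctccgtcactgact
The IL1B window held 3 matches to the C/EBP motif and 0 to the others, and the first IL1RL1 window likewise held 3 and 0. The second IL1RL1 window held 1 match to each of the 3 motifs. Of all 35114 windows of this length, 53.6% held the NF-kB motif, 7.71% the AP-1 motif and 36.8% the C/EBP motif. The first search had used a longer NF-kB form, with 1 more G at its start, which had 0 matches in each of the 3 windows and a match in 25.6% of all windows. The shorter form was taken after that result had been seen, so its 1 match comes from the second of 2 searches. A match describes these letters only.

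The other 12 genes of the family were all tested, and 1 was called, against 4.19% of all genes. IL1RAPL1, a receptor-like gene known from neurons, had levels of 1207, 2185, 1584 and 1608 in SB cells on arrays 1 to 4, and 1866, 2941, 2073 and 2141 in SCt cells. Its log2 ratio was −0.46 ± 0.11 (SD, n = 4 arrays; limma, adjusted p = 0.00158), and it was lower on all 4 arrays. The median of the 12 was 0.028, and 8 of the 12 were positive. That median was −0.0064 under median centring, so that its sign depended on the scaling. Under median centring 5 of the 12 were called, beside 8937 of all 28505 probes. By the methods' t-test 3 had an unadjusted p under 0.05, as had 3936 of all 28505 probes, and 0 passed after adjustment. The inhibitory receptor SIGIRR had −0.06 ± 0.06 (SD, n = 4 arrays; limma, adjusted p = 0.593).

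Of 17 genes that cleave or release the ligands, such as CASP1, NLRP3 and GSDMD, 15 were tested and 0 were called by limma, against 4.19% of all genes, while 3 had an unadjusted p under 0.05, as had 19.8% of all genes. By the methods' t-test 2 had an unadjusted p under 0.05, as had 3936 of all 28505 probes, and 0 passed after adjustment. Their median log2 ratio was −0.027, and CASP1, which cleaves the precursors of IL-1β and IL-18, had −0.022 (limma, adjusted p = 0.899). The list median was 0.030 under median centring, so that its sign depended on the scaling. Under median centring, which called 8937 of 28505 probes, 2 genes were called, CASP8 and CTSG, and without array 4 there was 1, CAPN1, beside 1991 of all 28499 probes.

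Of 21 genes of receptor signalling, 19 were tested and 3 were called, against 4.19% of all genes, with a list median of 0.034. PELI1, a ubiquitin ligase of the IRAK complex, was higher in SB cells, at 0.33 ± 0.16 (SD, n = 4 arrays; limma, adjusted p = 0.0199). The IkB kinase genes CHUK and IKBKB were lower, at −0.33 ± 0.16 and −0.24 ± 0.09 (SD, n = 4 arrays each; adjusted p = 0.0199 and 0.0462 from limma). The adaptor MYD88 had 0.034 (limma, adjusted p = 0.836). No gene of the list was called without array 2, without array 3 or with the series value table, which called 431, 204 and 698 of all probes against 1055 in the main fit. In the list 1 was called under the software's log ratio or the trend and robust options of eBayes, which called 756 and 579 of all probes. Under median centring 8 were called, beside 8937 of all 28505 probes. By the methods' t-test 3 had an unadjusted p under 0.05, as had 3936 of all 28505 probes, and 0 passed after adjustment.

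Of 35 genes known to rise with IL-1 in epithelial cells, 29 were tested and 8 were called, 7 lower and 1 higher in SB cells. Of all genes 4.19% were called, 2.97% lower and 1.22% higher. The list median was −0.07 against 0.0021 over all genes. By the methods' t-test 8 had an unadjusted p under 0.05, as had 3936 of all 28505 probes, and 0 passed after adjustment. The list shares genes with NF-kB target lists whose lower level in these data was already known, so it is no independent evidence of a direction. MMP1 had the lowest log2 ratio, −1.65. The other genes called lower were CCL20 at −0.50, TNFAIP3 at −0.48, TNFAIP2 at −0.45, CXCL8 at −0.42, CXCL1 at −0.37 and CXCL2 at −0.29. Their order depended on the steps: CXCL8 had −0.81 with the software's log ratio, and TNFAIP2 had −0.21 under median centring. CXCL2 was called in 11 of the 17 alternatives. Median centring gave it −0.165, not called (limma, adjusted p = 0.0813). With the software's log ratio and the series value table it was not called either (limma, adjusted p = 0.0677 and 0.0736). In both of these the list still had 8 called genes, as CSF2 was called in place of CXCL2. The chemokine genes with a second probe gave lower values there, −0.73 for CXCL1 and −0.85 for CXCL2. S100A9 was higher, at 0.61, with log2 ratios of 0.63, 0.71, 1.00 and 0.08 on arrays 1 to 4. Without array 3, 1 gene of the list was called, MMP1, beside 204 of all 28460 probes, and without array 2, 5 were, beside 431 of 28822. The main fit called 1055 of 28505.

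**Figure D5:**
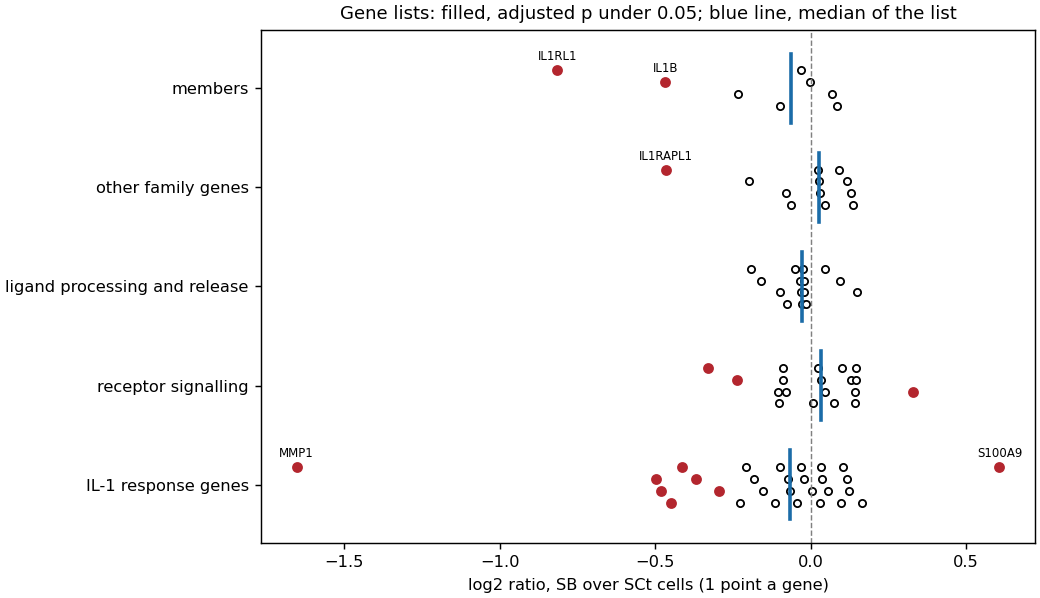
Log2 ratio, SB over SCt, 1 point a gene, for the members and 4 other lists; filled points have an adjusted p under 0.05 and the blue line is the median of a list. The members' called genes are IL1RL1 (−0.82) and IL1B (−0.47), and the dashed line is the median of all genes tested (0.0021).

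Markers of cell types were read beside these results. All 10 squamous epithelium markers stood well above background in both lines on each of the 4 arrays, and 0 were called by limma, with 5 at an unadjusted p under 0.05, which 19.8% of all genes had, and 0 past the methods' t-test after adjustment. Their summed level was 232672, 247894, 245421 and 149473 in SB cells on arrays 1 to 4, and 240233, 234787, 257331 and 146204 in SCt cells. Array 4 was lowest in both lines. Of 10 leukocyte markers 8 passed the filter, of 8 fibroblast markers 4 and of 5 endothelial markers 4, and limma called 0 of them, with 0 at an unadjusted p under 0.05 and 0 past the methods' t-test after adjustment. The summed leukocyte level was 33104, 32476, 31051 and 40438 in SB cells, and 33184, 33584, 30249 and 40080 in SCt cells. For fibroblast markers the sums were 6653, 4825, 7064 and 8894 in SB cells, and 6495, 5164, 5860 and 9027 in SCt cells. For endothelial markers they were 1455, 1457, 1399 and 1389 in SB cells, and 1527, 1384, 1437 and 1303 in SCt cells. ITGAM, COL3A1, PDGFRB, PDGFRA, LUM and TEK did not pass the filter. The RNA came from cultures of SAS cells, so these levels are no evidence that other cell types were present. The leukocyte gene PTPRC, for example, had a level of 18664 in SB cells and 18768 in SCt cells. A probe that passes the filter therefore does not by itself show that its gene is expressed, and this holds for the family probes too. Of the control genes, GAPDH had −0.06 (limma, adjusted p = 0.706) and ACTB 0.41 (limma, adjusted p = 0.00691). Over the 17 alternatives ACTB ran from 0.20 to 0.91, and it was called in 13 of them.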

How the data were processed

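For each of the 4 arrays the authors deposited the output of Feature Extraction 10.5.1.1, in which each spot has a median red and a median green intensity with local background, not normalized. The deposited files also hold a log10 ratio, red to green, made by the software and flags for outliers and for signal well above background. A table for the whole series was deposited by the authors with log2 values. Its columns had medians of −0.0165, 0.022, 0.00564 and 0.0137, and 98.7% to 99.1% of its 34127 probes equalled the log2 of the processed red over green signal within 0.001, so its direction is SB over SCt.

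In R 4.3.3 with limma 3.58.1, background was corrected by normexp (offset 50) and log2 ratios were normalized by loess within arrays, control spots having weight 0 and outlier spots being left out. This offset shrinks the ratios of dim spots. A probe's spots were averaged. A probe was tested where, in 1 of the channels, more than 50% of its spots were flagged as well above background on each of the 4 arrays, with values on at least 2. This left 28505 of 34127 probes, whose mean was tested against 0 by lmFit and eBayes with no covariate. EBayes draws the variance of each probe toward that of all probes. The p-values and intervals of limma thus do not rest on a probe's own spread alone. Reading the filter as at least 50% of the spots was an alternative chosen after seeing the data, and the reading used was chosen with the number of probes it keeps already known. Levels were taken after loess and Aquantile. A gene was represented by its brightest tested probe. The 4 arrays shared 1 slide and 1 scan, so neither could be a block. Between 84.7% and 90.3% of spots per array and channel were well above background, and the number of arrays limits the precision.

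Probes were named through accessions in the RefSeq table (GRCh38.p14): 24826 of 34127 matched, and MAPK8 and LYZ were unmatched. The array design refers to another build, so that table gave names and the order of neighbours only. Genes named are the members, MTDH, called genes of each other list (at most the 8 largest changes), IL1RL2, IL18R1, SIGIRR and IL36RN, the 3 genes nearest to each called member (printed for IL1B only), and GAPDH and ACTB. IL37, IL18RAP, CASP1, MYD88 and other genes outside this rule were named after their values were seen. The members and lists were chosen with earlier results of these data known. The steps were tested on simulated data. Alternatives are given in the closing section.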

Additional observations from a re-analysis of the deposited data

Results flagged for a closer look

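Among 32 genes of the naming rule with values on all 4 arrays, 4 had 1 array far from the other 3, measured as its gap to the nearest array divided by the whole range. Chance marks about 5% of groups. For IL1A this share was 0.875: array 4 had a log2 ratio of 0.09, and the others lay between −0.37 and −0.31. For TNFAIP3 it was 0.993, with −0.11 on array 4 and the others at −0.60. For IL1RL2 it was 0.837, with 0.13 on array 4 and the others between −0.018 and 0.0055. For IL1RAPL1 it was 0.833, with −0.63 on array 1 and the others between −0.43 and −0.39. Array 4 stood apart in 3 of the 4 genes, and it had the highest share of outlier spots, 2.71% against 1.89% to 2.26%. Over the probes tested, the log2 ratios of arrays 1 and 4 had the lowest correlation of any 2 arrays (r = 0.0473), and the highest that an array had with another lay between 0.425 and 0.461. Without array 4, IL1A had −0.34, TNFAIP3 −0.60 and IL1RL2 −0.0059. Why array 4 differed was not tested.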

How the results depend on the processing

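IL1B and IL1RL1 were lower in SB cells under all 17 alternatives, with log2 ratios from −0.52 to −0.36 and from −0.999 to −0.79. Both passed limma's test in each alternative that used it, with adjusted p-values from 1.85e-06 to 0.0367 and from 1.88e-11 to 0.00354, the lowest without array 4 and the highest without array 3, and neither passed the methods' t-test after the Benjamini-Hochberg adjustment added here (adjusted p = 0.216 and 0.157, the highest of the alternatives), while 2 of the 8 members had a p under 0.05 in it without adjustment. The 17 alternatives changed the test (the methods' t-test, or eBayes with both options on), the values (the series value table, or the software's log ratio), the scaling (Aquantile added to loess, or median centring), the background step (none, or normexp with no offset), the filter (none, in both channels, or at least 50%), the spots (outliers kept), the probes (a gene's mean) or the arrays (each of the 4 left out). For IL1B and IL1RL1, with 1 probe each, the changes of test and filter, Aquantile and the gene's mean cannot alter the log2 ratio. Only the other alternatives could have moved it. The differences between members kept their sign under every alternative run for them, though Aquantile cannot alter these either. The main counts were 1055 probes, 2 members, 1 other family gene, 0 processing genes, 3 signalling genes and 8 response genes. The methods' t-test, adjusted likewise, gave 0 probes, 0 members, 0 other family genes, 0 signalling genes and 0 response genes, with 3936 probes at an unadjusted p under 0.05. Median centring gave 8937 probes (5599 higher and 3338 lower, against 376 and 679), 5 other family genes, 2 processing genes, 8 signalling genes and 12 response genes. EBayes with trend and robust options gave 579 probes and 1 signalling gene, the value table of the series gave 0 signalling genes and 698 probes, and the software's log ratio 1 signalling gene. With each array left out in turn, probes numbered from 204 to 1991, members from 2 to 3, processing genes from 0 to 1, signalling genes from 0 to 3 and response genes from 1 to 8; other family genes stayed at 1. Without array 4 IL1A was called (−0.34). Values near 0 changed sign: under median centring IL1RN had 0.083, IL33 −0.017, SIGIRR 0.014 and GAPDH 0.29, where GAPDH was called. The software's log ratio and the series table gave IL1RN 0.0027 and IL1R1 0.0011, and the mean over probes gave IL1RAP −0.0017. With an array left out, IL1RN ranged from −0.044 to 0.030, GAPDH from −0.13 to 0.023, IL1RAP from −0.0029 to 0.13 and IL1RL2 from −0.0059 to 0.042. Reading the filter as at least 50% of the spots, chosen after seeing the data, tested 28507 probes and 30 response genes and called 1055 and 8. The cause was not tested. Signal over background left IL1R2 and IL36G without a fold.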
